A study of Ovis aries with 15 samples.

Results

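The mitochondrial enzymes of fatty acid beta-oxidation were followed in the mammary gland of the ewe between late pregnancy and lactation. The members are the features of the deposited table named by 1 of 10 symbols chosen for the steps of the pathway, and 8 of the 10 were found among 24691 features: CPT1A, CPT2, ACADVL, ACADL, HADHA, HADHB, HADH and ACAA2. ACADM was not found under its symbol and is not analysed here. ECHS1 was not found under its symbol either, but the feature LOC101112867 carries the RefSeq gene ID of ECHS1, and its values stand beside those of the members without being counted with them. All 8 members passed the filter on low counts.

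RNA from needle biopsies of mammary parenchyma of 2-year-old Romney ewes in their first pregnancy was sequenced at day 135 of gestation (late pregnancy, 9 libraries) and at day 15 post partum (lactation, 6 libraries). Each library is 1 pool of RNA, so the spread between libraries is a spread between pools and not between ewes, and the labels and the paper differ on whether a lactation pool holds 2 or 3 ewes. The lactation biopsies are described as a repeat sampling of ewes already biopsied in late pregnancy, so pools of both states may hold RNA of the same ewes, and the sources do not say which pools do. The ewes themselves were managed alike on pasture and fell into 3 groups by what their own dams were fed in early gestation, namely ad libitum (HM), maintenance (MM) or sub-maintenance (LM) pasture, with all of these dams at maintenance afterwards. Each group holds 3 late pregnancy pools and 2 lactation pools.

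Beta-oxidation shortens fatty acids inside the mitochondrion and yields acetyl-CoA and reduced cofactors for respiration. Long-chain acyl groups enter through the carnitine shuttle, in which a carnitine palmitoyltransferase 1 on the outer membrane is the regulated step, and are then taken through dehydrogenation, hydration, a second dehydrogenation and thiolytic cleavage in repeated rounds. The lactating gland is known instead for making and exporting fat, and malonyl-CoA, the first committed product of fatty acid synthesis, inhibits carnitine palmitoyltransferase 1.

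The reads on genes numbered 7597938 to 19823166 per library before lambing and 10352962 to 25679416 after it. Milk protein genes made up 13.7 to 23.4% of them before and 71.3 to 75.8% after, so levels are given as CPM (read counts scaled to a common total) on library sizes adjusted by the trimmed mean of M values (TMM), and levels compared between genes as that quantity per kilobase of exon (TMM-scaled RPKM). Luminal epithelial markers were present in both states, with a summed level of 1659 to 2047 CPM in late pregnancy and 2412 to 2684 CPM in lactation. Of these 8 markers, 4 were higher and 2 lower in lactation at an edgeR adjusted p under 0.05. Over all genes tested 33.1% were higher and 35.2% lower. The markers with the highest levels, ELF5 and KRT19, rose from 629 to 1100 and from 622 to 947 CPM, while KRT7 fell from 262 to 121 CPM. On TMM scaling the log2 changes of ELF5 and KRT19 were 0.81 and 0.61. With libraries scaled by their total reads alone, the median log2 change of all genes tested went from -0.03 to -1.94. The rises of these markers and of their summed level thus depend on the scaling.

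The 8 enzymes differed in the size of their change. CPT1A and the 2 subunits of the mitochondrial trifunctional protein, HADHA and HADHB, were lower in lactation by 4.91-fold, 4.81-fold and 4.71-fold, while ACADVL was 1.52-fold lower and CPT2, ACADL and ACAA2 were lower by at most 1.22-fold. HADH was at 69.9 ± 3.44 CPM (SD, n = 9) in late pregnancy and 66.0 ± 4.36 CPM (SD, n = 6) in lactation and was not called. In all, 7 of the 8 members were called lower and 0 higher at an adjusted p under 0.05 by edgeR's quasi-likelihood test with Benjamini-Hochberg adjustment over 13345 genes, of which 35.2% were called lower and 33.1% higher. For a change of more than 2-fold downward the count was 3 of 8 members, beside 13.0% of the genes tested. The median log2 change of the 8 was -0.45, beside -0.03 over all genes tested. Because these are biopsies, fewer cells that express a gene and less of its RNA per cell cannot be told apart.

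**Figure D1:**
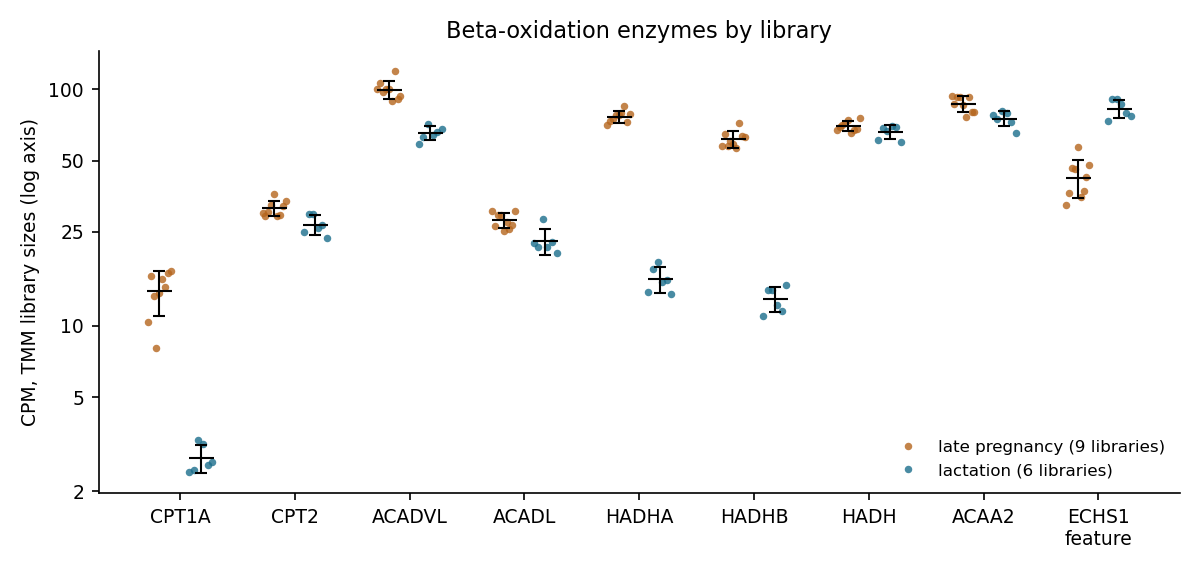
Level of each enzyme in every library, in CPM on TMM library sizes on a log axis, with late pregnancy in orange (9 libraries) and lactation in blue (6 libraries), and the mean ± SD as black bars. For CPT1A, ACADVL, HADHA and HADHB every lactation library lies below every late pregnancy library, while the feature with the gene ID of ECHS1 lies higher in lactation on this scaling.

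CPT1A had the lowest level of the 8 enzymes in both states. This gene, the liver-type carnitine palmitoyltransferase 1 that makes acylcarnitine at the outer membrane, lies on chromosome 21:45449164-45488891 with 18 exons (coordinates as in the deposited table, for whose sheep assembly the sources give different versions). Its level in late pregnancy ran from 8.07 through a median of 14.6 to 17.0 CPM, and in lactation from 2.42 through 2.62 to 3.31 CPM. The groups did not overlap, and the lowest late pregnancy library, MM pool 1, was still above the highest lactation library, MM pool 1. The log2 change was -2.29 ± 0.19 (SE), with an edgeR adjusted p of 1.3e-09. These lactation values rest on 11 to 38 reads per library, against 177 to 496 in late pregnancy. Only 340 of the 13345 genes tested had a more negative log2 change.

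CPT2, the inner-membrane transferase that turns acylcarnitine back into acyl-CoA, lies on chromosome 1:27463132-27486520 with 5 exons. It ranged from 29.2 (median 30.4) to 36.0 CPM in late pregnancy and from 23.6 (median 26.2) to 29.8 CPM in lactation. The ranges overlapped at their edges, with 2 lactation pools, HM pool 2 and MM pool 1, within the late pregnancy range. The log2 change was -0.23 ± 0.07 (SE), with an edgeR adjusted p of 0.0050.

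Measured against each other within a library, the carnitine transferases moved apart. The log2 ratio of CPT1A to CPT2 in RPKM was -0.84 ± 0.38 (SD, n = 9) in late pregnancy and -2.92 ± 0.20 (SD, n = 6) in lactation. An exact two-sided permutation test over every assignment of libraries to states gave p = 0.00020, the smallest it allows, and 0.00040 after Benjamini-Hochberg adjustment over 4 ratios. The same ratio of CPT1A to ACACA, the acetyl-CoA carboxylase that makes malonyl-CoA for synthesis, fell from -0.94 ± 0.47 to -5.93 ± 0.23 on the log2 scale, again with an exact permutation p of 0.00020 and an adjusted p of 0.00040. Ratios taken within a library do not depend on how libraries are scaled.

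The next enzymes are the acyl-CoA dehydrogenases, which carry out the first oxidation of each round and are sorted by chain length. ACADVL, for very long chains, lies on chromosome 11:26565367-26570768 with 21 exons, and ACADL, for long chains, on chromosome 2:210796231-210839951 with 14 exons. ACADVL ran from 89.2 (median 100.3) to 119.6 CPM in late pregnancy and from 58.5 (median 65.2) to 71.5 CPM in lactation. No lactation library reached the late pregnancy range, and the log2 change was -0.61 ± 0.06 (SE), with an edgeR adjusted p of 6.7e-08. ACADL ran from 25.2 (median 27.5) to 30.5 CPM in late pregnancy and from 20.4 (median 22.0) to 28.2 CPM in lactation. Its lactation libraries lay below the late pregnancy range except for MM pool 1, the highest at 28.2 CPM, which stood among the late pregnancy values. The log2 change of ACADL was -0.28 ± 0.07 (SE), with an edgeR adjusted p of 0.0021, and -0.36 without lactation MM pool 1.

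ACADVL fell more than ACADL. The log2 ratio of ACADVL to ACADL in RPKM was 2.04 ± 0.19 (SD, n = 9) in late pregnancy and 1.73 ± 0.14 (SD, n = 6) in lactation, a difference of -0.31 with an exact permutation p of 0.0044 and an adjusted p of 0.0059. A lane stands in each column name of the table, although by the submitters' notes each library was spread over both lanes. Among the libraries named for lane 7 the difference was -0.45, and among those named for lane 8 it was -0.18 with an exact permutation p of 0.25. Every LM library is named for lane 8, while HM and MM libraries are named for both lanes. The lanes thus differ in dam feeding, and this split does not separate lane from dam feeding.

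HADHA and HADHB encode the alpha and beta subunits of the trifunctional protein, a complex of the inner membrane. The alpha subunit hydrates long-chain enoyl-CoA and oxidizes the product, and the beta subunit cleaves off acetyl-CoA. The genes are neighbours on chromosome 3, HADHA at 33296317-33338520 and HADHB at 33338818-33367776, each with 20 exons and with 297 bases between them. HADHA ran from 70.5 (median 77.6) to 84.6 CPM in late pregnancy and from 13.7 (median 15.5) to 18.6 CPM in lactation. HADHB ran from 56.3 (median 60.2) to 72.1 CPM in late pregnancy and from 11.0 (median 13.2) to 14.8 CPM in lactation. For both subunits the highest lactation library was far below the lowest late pregnancy library, and the lactation values rest on 63 to 214 reads for HADHA and 50 to 163 reads for HADHB.

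The 2 subunits fell by nearly the same factor. The log2 change was -2.27 ± 0.07 (SE) for HADHA and -2.24 ± 0.08 (SE) for HADHB, with edgeR adjusted p of 7.6e-16 and 3.5e-15. The log2 ratio of HADHA to HADHB was 0.14 ± 0.10 (SD, n = 9) in late pregnancy and 0.10 ± 0.20 (SD, n = 6) in lactation. The difference of -0.04 had an exact permutation p of 0.65, with 0.01 to 0.32 as the range over the late pregnancy libraries and -0.29 to 0.26 over the lactation libraries, the lowest being LM pool 2.

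The remaining matrix enzymes had the smallest differences. HADH, the hydroxyacyl-CoA dehydrogenase of the matrix for medium and short chains, lies on chromosome 6:17326537-17370297 with 8 exons. It ran from 65.5 (median 69.1) to 75.7 CPM in late pregnancy and from 60.2 (median 67.7) to 69.9 CPM in lactation, and 4 of the 6 lactation libraries lay inside the late pregnancy range. The log2 change was -0.08 ± 0.05 (SE), with an edgeR adjusted p of 0.17. ACAA2, the matrix thiolase that releases acetyl-CoA, lies on chromosome 23:49605287-49650309 with 10 exons. It ran from 76.4 (median 86.5) to 93.2 CPM in late pregnancy and from 65.7 (median 76.3) to 80.7 CPM in lactation. The ranges overlapped, and the log2 change was -0.20 ± 0.06 (SE), with an edgeR adjusted p of 0.0059.

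The feature with the gene ID of ECHS1, the short-chain enoyl-CoA hydratase of the matrix, lies on chromosome 22:50733663-50741184 with 7 exons. It ran from 32.5 (median 42.5) to 56.9 CPM in late pregnancy and from 73.2 (median 82.9) to 91.0 CPM in lactation. The lactation libraries were all above the late pregnancy ones, with a log2 change of 0.97 ± 0.10 (SE) and an edgeR adjusted p of 5.1e-08, which became -0.94 when libraries were scaled by their total reads alone. Relative to the median of all genes tested, the change was 1.00 on both scalings.

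Ranges that did not overlap between the states, with lactation lower, were found for 4 of the 8 members and for 20.0% of the genes tested. On total reads alone the median of all genes moved to -1.94, and the log2 change became -4.21 for CPT1A, -4.17 for HADHA and -1.99 for HADH, which was then called. Taken relative to that median, CPT1A stood at -2.27, HADHA at -2.24 and HADH at -0.05, against -2.26, -2.23 and -0.05 on TMM library sizes. HADH was also called lower with upper-quartile scaling, on quantile-normalized RPKM and with at least 10 reads required in every library. The deposited RPKM, which divides by all reads on genes, put HADH at 56.7 ± 4.38 (SD, n = 9) in late pregnancy and 15.5 ± 0.95 (SD, n = 6) in lactation.

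Per kilobase of exon, the order of the enzymes changed between the states at 2 places. The trifunctional subunits stood above ACADL and CPT2 in late pregnancy and below them in lactation, and HADH and ACADVL changed places. In late pregnancy the mean TMM-scaled RPKM was 55.9 for ACAA2, 44.9 for ACADVL, 39.2 for HADH, 28.2 for HADHA, 25.6 for HADHB, 10.9 for ACADL, 10.3 for CPT2 and 5.88 for CPT1A. Neighbours in that order overlapped in range except at 3 places, HADH over HADHA, HADHB over ACADL and CPT2 over CPT1A. In lactation the order was ACAA2 at 48.5, HADH at 37.0, ACADVL at 29.4, ACADL at 8.91, CPT2 at 8.75, HADHA at 5.80, HADHB at 5.41 and CPT1A at 1.16. Here the ranges of ACADL and CPT2 overlapped, as did those of HADHA and HADHB, and the other neighbours were apart.

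Reads on introns, which come mostly from unspliced RNA, are a second readout of the same libraries. Of the 7 members with enough intron reads to test, 5 were called lower and 0 higher, beside 29.0% of 10344 genes called lower. CPT1A went from 32.8 ± 8.67 to 5.75 ± 2.23 CPM of intron reads, HADHA from 56.1 ± 4.56 to 12.1 ± 4.30 CPM and HADHB from 90.7 ± 7.57 to 19.7 ± 5.36 CPM (SD, n = 9 and 6). The log2 changes were -2.59 ± 0.29, -2.23 ± 0.16 and -2.18 ± 0.13 (SE), each within 0.30 of the change on exons. The lactation values rest on few intron reads per library, 2 to 7 for CPT1A, 5 to 23 for HADHA and 9 to 30 for HADHB. ACADVL changed by -0.72 ± 0.18 and ACAA2 by -0.33 ± 0.08, both called. For ACADL the value was -0.19 ± 0.14 with an edgeR adjusted p of 0.26, and for HADH -0.08 ± 0.12 with an adjusted p of 0.61. CPT2 had too few intron reads for the test. The share of a gene's reads that fell on introns was 8.10 ± 0.72% in late pregnancy and 8.87 ± 2.92% in lactation for HADHA, and 15.1 ± 1.34% and 16.0 ± 3.33% for HADHB.

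**Figure D2:**
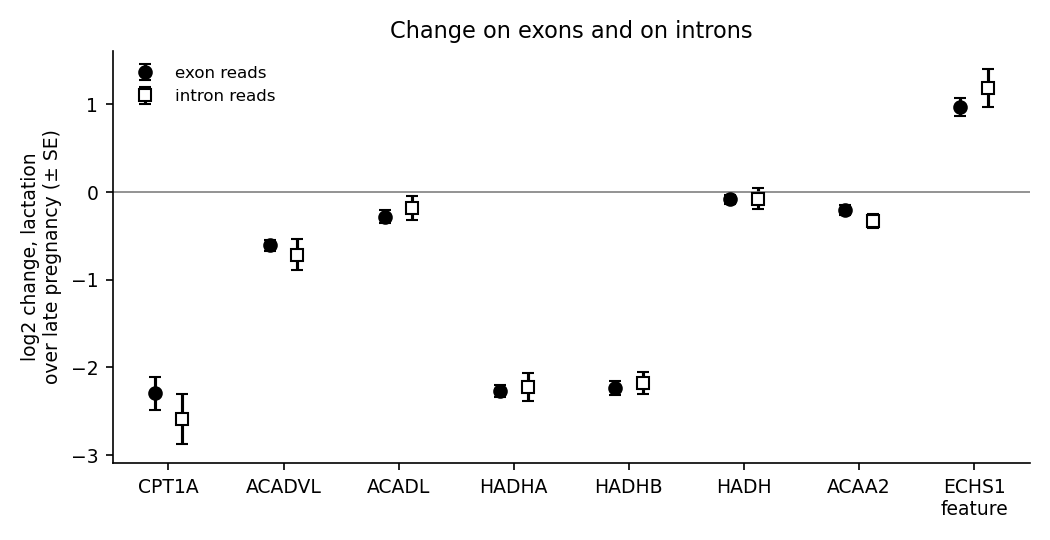
Log2 change from late pregnancy to lactation ± SE on exon reads (filled circles) and intron reads (open squares), from the edgeR fits over all 15 libraries. CPT1A, HADHA and HADHB lie between -2.6 and -2.1 on both readouts, HADH lies near 0, and the ECHS1 feature lies near 1 on TMM scaling and below 0 on exons when total reads alone set the scale.

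CPT1B, the muscle-type isoform of carnitine palmitoyltransferase 1, is no member but catalyses the same step as CPT1A. It lies on chromosome 3:224095110-224102946 with 20 exons. It ran from 3.78 (median 4.26) to 8.50 CPM in late pregnancy and from 73.8 (median 77.8) to 91.0 CPM in lactation. No library of one state came near the range of the other, and the log2 change was 3.94 ± 0.14 (SE), a 15.3-fold higher level in lactation with an edgeR adjusted p of 5.0e-15. On total reads alone the log2 change was 2.04.

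With both isoforms per kilobase, CPT1B was 25.6 ± 8.56% (SD, n = 9) of the sum of CPT1A and CPT1B in late pregnancy and 96.3 ± 0.45% (SD, n = 6) in lactation. The sum itself was 7.87 ± 1.21 TMM-scaled RPKM in late pregnancy and 31.3 ± 2.39 in lactation, and the size of this rise depends on the scaling. In the deposited RPKM, which divides by all reads on genes, CPT1A ran from 4.93 to 10.9 in late pregnancy and from 0.42 to 0.62 in lactation. CPT1B ran from 2.13 to 4.33 and from 11.3 to 14.2 in the same measure. The log2 ratio of CPT1A to CPT1B within a library ran from 0.57 to 2.31 in late pregnancy and from -4.93 to -4.47 in lactation, a ratio looked at after the values of CPT1B were seen and given without a test. CPT1A was thus the isoform with the higher level in all 9 late pregnancy libraries and CPT1B in all 6 lactation libraries. The third isoform, CPT1C, known from the brain, was at 1.91 ± 0.32 and 0.68 ± 0.26 CPM.

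**Figure D3:**
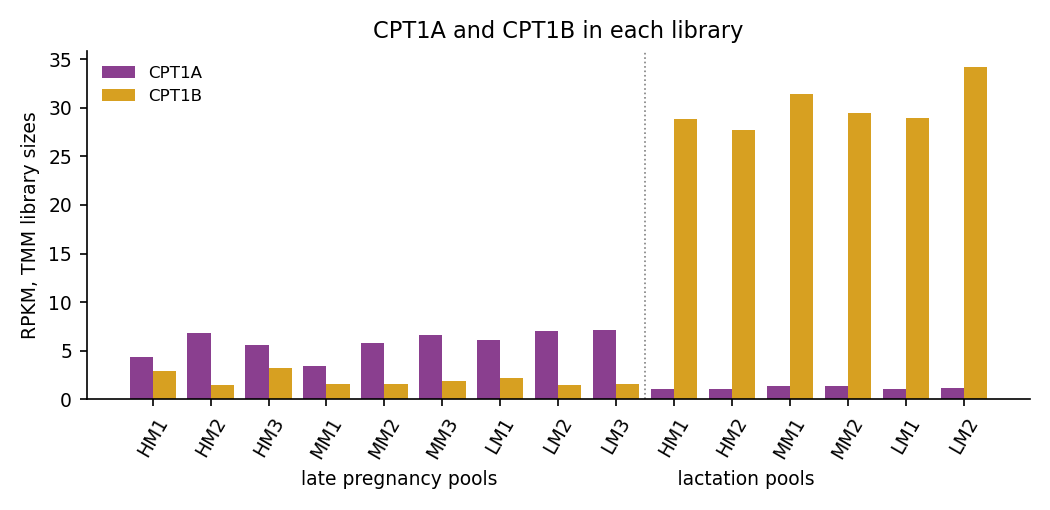
TMM-scaled RPKM of CPT1A (purple bars) and CPT1B (yellow bars) in each of the 9 late pregnancy pools and, right of the dotted line, the 6 lactation pools, named by dam feeding group and pool. CPT1A is the taller bar in every late pregnancy pool, and CPT1B reaches 27.7 to 34.2 in lactation where CPT1A is at 1.02 to 1.39.

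All CPT1A and CPT1B exon reads were uniquely placed. The next gene beside CPT1B is CHKB, with 925 bases between the 2 genes by the deposited coordinates. CHKB went from 34.8 ± 4.29 to 77.3 ± 7.18 CPM, a log2 change of 1.15 ± 0.08 (SE) with an edgeR adjusted p of 7.0e-11. On introns the log2 change of CPT1B was 3.24 ± 0.21 (SE). The 6 skeletal muscle markers in the table summed to only 1.60 to 3.30 CPM in late pregnancy and 0.45 to 1.65 CPM in lactation. The 2 that had enough reads to test, TNNI2 and TNNT3, were called lower, beside 35.2% of all genes tested. In late pregnancy these 2 were at 0.92 and 0.88 CPM. Whether muscle in the biopsies had a part in the level of CPT1B was not tested. MB and MYL1 were at 0 reads in every lactation library.

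Marker genes of several other cell types also differed between the states. Summed levels in late pregnancy and lactation were 1376 to 2197 and 664 to 1073 CPM for 8 fibroblast markers, 199 to 269 and 140 to 198 CPM for 6 endothelial markers, 145 to 194 and 81.9 to 119 CPM for 7 macrophage markers, and 42.0 to 68.9 and 13.4 to 20.9 CPM for 7 T cell markers. Called lower were 6 of 8 fibroblast, 5 of 6 endothelial, 5 of 7 macrophage and 6 of 6 tested T cell markers, beside 35.2% of all genes tested. CD14 of the macrophage list was called higher. The part of these cell types in the fall of CPT1A, HADHA, HADHB and ACADVL was not tested. The 8 myoepithelial markers were at 712 to 797 CPM in late pregnancy and 662 to 963 CPM in lactation. The 11 adipocyte markers summed to 302 to 534 and 903 to 1024 CPM, but CIDEA, which lactating epithelium also expresses, made up 462 ± 42.8 CPM of the latter. Of the 8 adipocyte markers tested 4 were called higher on TMM scaling (LIPE, GPD1, ADIPOR2 and CIDEA) and 0 lower, beside 33.1% and 35.2% of all genes tested. Of these 4, LIPE and GPD1 were lower on total reads alone. Of the 4 adipocyte markers tested but not called, ADIPOQ was at 10.1 ± 5.05 CPM in late pregnancy and 7.53 ± 3.27 CPM in lactation. FABP4, also among those 4, was at 322 ± 65.3 and 333 ± 37.9 CPM.

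Around the members, the other genes of mitochondrial oxidation were called in both directions. Of 22 tested, 10 were called lower and 6 higher, beside 35.2% and 33.1% of all genes tested, so the list stood near the background. Its median log2 change was -0.14, beside -0.03 over all genes. The largest falls, besides CPT1C, were in PCCB at -0.93, a subunit of propionyl-CoA carboxylase, in DECR1 at -0.64, the dienoyl-CoA reductase, and in ECI2 at -0.54, an enoyl-CoA isomerase. Besides CPT1B, the dehydrogenases ACADSB at 0.49, ACAD8 at 0.38 and ACAD11 at 0.34 were called higher on TMM scaling, and all 3 turned lower on total reads alone. ACAD8 was not called with upper-quartile scaling (adjusted p = 0.15), with no filter or the 10-read filter, or without lactation MM pool 1 (0.094) or LM pool 2 (0.054). SLC25A20, the carnitine-acylcarnitine carrier between CPT1 and CPT2, was at 10.1 CPM in late pregnancy and 7.17 CPM in lactation, with a log2 change of -0.52 and an edgeR adjusted p of 0.00013. ACADS, the short-chain dehydrogenase, was at 5.75 ± 0.85 and 6.05 ± 2.01 CPM and was not called on TMM scaling. The electron transfer flavoprotein subunits ETFA and ETFB, which take up the electrons of the dehydrogenases, had log2 changes of -0.12 and -0.13 and were not called on it either, while ETFDH, their oxidoreductase, was called lower at -0.19. SLC25A20, ACADS, ETFA, ETFB and ETFDH were singled out by their place in the pathway after the values were seen.

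In the peroxisome, where very long and branched chains are shortened, 8 of 15 tested genes were called lower and 5 higher. Over all genes tested 35.2% were called lower and 33.1% higher. The median log2 change of the list was -0.44. The falls were led by HACL1 at -1.88, the lyase of alpha-oxidation, and CROT at -1.47, the octanoyltransferase that passes shortened chains on to carnitine, followed by ABCD3 at -0.98, an importer, and HSD17B4 at -0.77, the bifunctional enzyme. CRAT at 0.88 and PHYH at 0.54 were among those called higher on TMM scaling, and both were called lower on total reads alone.

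Acyl-CoA synthetases activate fatty acids for oxidation or for esterification, and thioesterases undo that step. Of these genes 7 of 12 were called higher and 4 lower, beside 33.1% and 35.2% of all genes tested. The median log2 change of the list was 0.33. ACSL1 went from 345 ± 56.8 to 2069 ± 271 CPM, while ACSL5 went from 19.4 ± 3.57 to 7.25 ± 0.94 CPM. The log2 changes were 2.58 for ACSL1, 2.66 for ACSS2 and 2.42 for ACSS3, which activate short chains, and 3.46 for the thioesterase ACOT11. They were -1.42 for ACSL5, -0.75 for ACSL4, -0.57 for ACOT7 and -0.28 for ACOT9, the last with an edgeR adjusted p of 0.046. ACOT9 lost its call in DESeq2 and in 10 of the 15 fits with 1 library left out, with an adjusted p of up to 0.15 (without lactation HM pool 2), and ACOT7 lost it without lactation MM pool 1 (edgeR adjusted p of 0.088).

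Of 26 tested genes of the control of oxidation, 9 were called lower and 7 higher, again near the 35.2% and 33.1% of all genes tested, with a median log2 change of -0.11. UCP2, an uncoupling protein of the inner membrane, fell by 2.12 on the log2 scale, PDK4, the kinase that shuts pyruvate out of the mitochondrion's oxidative path, by 1.33, ANGPTL4 by 0.93 and PRKAG2 by 0.66. ACACA went from 104 ± 11.4 to 666 ± 67.2 CPM, a log2 change of 2.67. PPARD, a nuclear receptor of fatty acids, and PRKAA2 and PRKAB1, subunits of the AMP-activated kinase, were called higher at 1.25, 1.25 and 0.89 on TMM scaling and lower on total reads alone. MLYCD, which removes malonyl-CoA and was singled out after its value was seen, was at 13.9 CPM in late pregnancy and 13.4 CPM in lactation and was not called on TMM scaling. ACADS, ETFA, ETFB and MLYCD were each called lower on total reads alone.

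**Figure D4:**
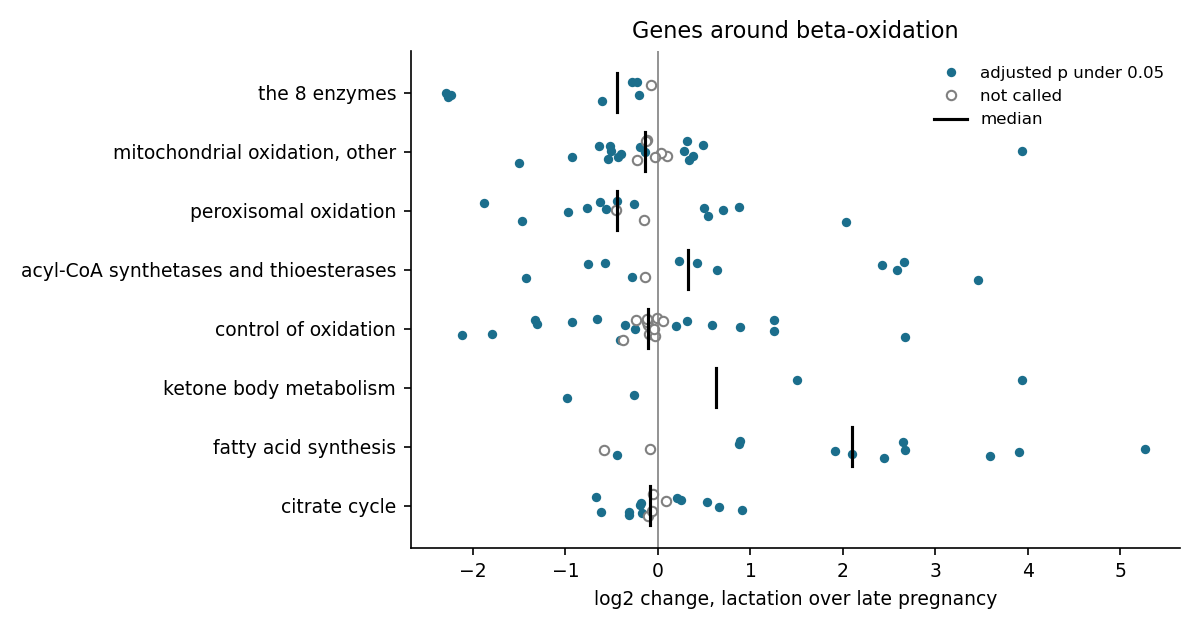
Log2 change from late pregnancy to lactation of each tested gene of the 8 enzymes and of 7 related lists, with called genes filled, other genes open and the median as a black line. The 3 enzymes near -2.3 are CPT1A, HADHA and HADHB, and the point near 3.9 in the second row is CPT1B. All changes are on TMM scaling, and those from 0 up to OXCT1 at 1.51 fall below 0 on total reads alone.

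Dam feeding was compared over the 9 late pregnancy libraries, the only state with 3 pools in each group. No member was called between HM, MM and LM, and the lowest unadjusted p was 0.11, for HADHB. Over all 13747 genes edgeR called 0 (0.0%), with 571 at an unadjusted p under 0.05 and 20 called by DESeq2. CPT1A was at 13.3 ± 2.88 CPM in HM, 12.5 ± 3.99 CPM in MM and 16.1 ± 1.33 CPM in LM (SD, n = 3 each). HADHA was at 72.9 ± 2.26, 78.1 ± 0.79 and 78.8 ± 5.94 CPM in the same groups. The HADHA values of HM (70.5 to 75.0 CPM) lay below those of MM (77.6 to 79.0 CPM), and the HADHB values of MM (56.3 to 60.2 CPM) below those of LM (62.7 to 72.1 CPM). How many of all genes separate in this way with 3 pools in each group was not counted, so no dam feeding difference is read from it. For the other members every pair of groups overlapped in range.

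The fall of the 3 most changed members was present in each dam group. Within HM, MM and LM the log2 change was -2.43, -1.94 and -2.62 for CPT1A, -2.21, -2.19 and -2.42 for HADHA and -2.23, -2.13 and -2.34 for HADHB. Called lower were 5 of 8 members in HM, 4 in MM and 7 in LM, beside 22.8%, 23.6% and 25.8% of the genes tested, and CPT1A, HADHA, HADHB and ACADVL were among them each time. A test of whether the change between the states differed between the dam groups gave an unadjusted p of 0.32 at the lowest among the 8 members. Over all 13345 genes that test called 0 in edgeR, with 876 at an unadjusted p under 0.05 and 19 called by DESeq2.

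**Figure D5:**
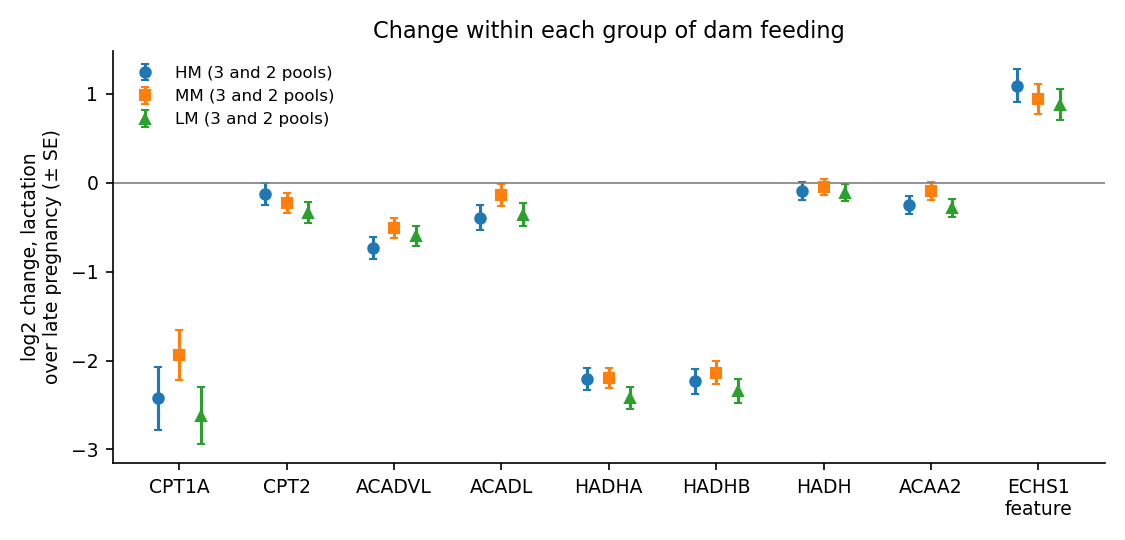
Log2 change from late pregnancy to lactation ± SE within HM (circles), MM (squares) and LM (triangles), each from 3 late pregnancy and 2 lactation pools in 1 edgeR fit with an interaction term. The 3 dam groups lie within 0.7 of each other for CPT1A and within 0.3 for the other members, and the ECHS1 feature, higher in each group on TMM scaling, is lower on total reads alone in the comparison of all libraries.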

How the data were processed

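The members and the lists around them were chosen with earlier results of these data known. The authors mapped paired reads to the sheep genome with CLC Genomics Workbench. The submitters' processing notes name Oar_v3.1 and the study's methods another version, so the assembly behind the coordinates is uncertain. The table they deposited holds raw read counts on exons and whole genes, the authors' RPKM (reads per kilobase of exon, scaled to the reads on genes) and the same RPKM after quantile normalization. Its fold changes and p-values come from the authors' own comparison and were not used. The library kit does not mark strand, so antisense reads cannot be told apart.

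Exon counts (whole-gene counts for features with no annotated transcript) were tested with edgeR 4.0.16 in R 4.3.3 by the quasi-likelihood F-test, after filterByExpr, with TMM scaling and Benjamini-Hochberg adjustment. Intron counts are whole-gene counts less exon counts. Alternatives used DESeq2 1.42.0 and limma 3.58.1 on log2(RPKM + 1) and log2(RPKM + 0.1). Ratios were tested by exact permutation in Python 3.11.15 with scipy 1.17.1. The fits were also run on counts simulated from late pregnancy means, with few genes changed, equally up and down. These counts lack the shift in milk protein reads, so they do not bear on the choice of scaling. Named from each list were up to 4 called genes in each direction with the largest log2 change and a mean of at least 1 CPM. Some genes that this rule names are not reported here, and they stay in the counts of their lists.

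Replicates are pools of RNA, so p-values measure the spread between pools. The same ewes were sampled in both states, and the tests treat the pools as independent because the sources do not tie pools to each other by ewe. Depth per library limits precision most for CPT1A in lactation. The samples share replicate numbers across states, but correlations between the deviations of same-numbered pools were at most 0.12, so no block was used.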

Additional observations from a re-analysis of the deposited data

Results flagged for a closer look

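Among 18 groups of values (the 8 enzymes and the ECHS1 feature in each state), 1 library stood apart from the rest of its group by Dixon's criterion, which chance meets in about 1 of 20 groups. ACADL in lactation was at 28.2 CPM in MM pool 1, and the nearest other lactation pool was at 22.7 CPM. Without that pool the log2 change of ACADL from late pregnancy to lactation was -0.36 in place of -0.28. The same pool was the highest of the lactation libraries for CPT1A at 3.31 CPM, CPT2 at 29.8 CPM, ACADVL at 71.5 CPM and HADHA at 18.6 CPM. It was also the highest for ACAA2 at 80.7 CPM and the ECHS1 feature at 91.0 CPM, but not for HADHB or HADH.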

How the results depend on the processing

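The count of members called lower was 7 or 8 under every alternative and 0 were called higher, with 7 whenever 1 library was left out. Over all genes the count called ran from 7216 to 13057 (main 9122), and from 8891 to 9049 with 1 library left out. Of the calls made on TMM library sizes 51.6% were lower, against 97.3% on total reads alone and 63.7% with upper-quartile scaling. The lowest depth is behind CPT1A in lactation, whose log2 change was -1.55 on quantile-normalized RPKM + 1. With the replicate block, which pairs pools by number over 12 libraries, 8324 genes were called and 7 members were called lower, against 8496 and 7 on the same libraries without it (a setting added after seeing the data), and of the genes named only ACOT9, also uncalled without the block, lost its call, at -0.29 with an edgeR adjusted p of 0.083. For dam feeding the replicate block left 0 genes called. Correlations of the deviations of same-numbered pools within a dam group lay between -0.02 and 0.07. For deviations from the mean of the state they lay between -0.05 and 0.12. With 2 lactation pools in each dam group, the lactation deviations within a group mirror each other, so the first range says little.

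On total reads alone the lists read as follows, with lower before higher. The counts were 21 and 1 for other mitochondrial oxidation, 14 and 0 for the peroxisome, 8 and 4 for the synthetases and thioesterases, 25 and 1 for control, 5 and 6 for fatty acid synthesis and 16 and 0 for the citrate cycle, with 1 higher for ketone bodies. For fatty acid synthesis 2 were lower with upper-quartile scaling, on whole-gene reads and on the 12 paired libraries without the block, and 1 to 2 with 1 library left out. For the citrate cycle 11 were lower and 3 higher on both quantile-normalized settings, and 3 higher with upper-quartile scaling.

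Signs reversed on total reads alone for the ECHS1 feature at -0.94, ACADSB at -1.42, ACAD8 at -1.52, ACAD11 at -1.58, CRAT at -1.03, PHYH at -1.37, PRKAA2 at -0.66, PPARD at -0.65, PRKAB1 at -1.02, OXCT1 at -0.40, OGDH at -0.997, CS at -1.38 and SDHC at -1.66. SDHC also reversed on quantile-normalized RPKM, at -0.025 with either pseudocount. On intron reads HADH reversed to 0.0060 with the scaling of the exon reads, and it ran from -0.15 to 0.00067 with 1 library left out, the last without lactation LM pool 1. The ratio of HADHA to HADHB reversed to 0.027 within lane 7 and ran from -0.075 to 0.035 with 1 library left out, the last without lactation LM pool 2. The ratio of ACADVL to ACADL lost its call within lane 8 at -0.18. Both ratios of CPT1A kept their calls within lanes.

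Over all genes, dam feeding had 20 calls in DESeq2 and 0 to 1 with 1 library left out, the 1 without late pregnancy LM pool 1. The interaction had 19 in DESeq2, 2 without a filter and 0 to 10 with 1 library left out, 10 without lactation HM pool 2 and 2 without lactation LM pool 2. No member was among the calls of either test under any alternative. The ratio of ACADVL to ACADM was not run, since ACADM is not analysed here. Except for the scaling itself, the cause of these moves was not tested.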

Other observations

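The pathways on either side of beta-oxidation were counted in the same way. Of 13 genes of fatty acid synthesis 10 were called higher and 1 lower, beside 33.1% and 35.2% of all genes tested. The median log2 change of the list was 2.10, beside -0.03 over all genes tested. FADS2 and FADS1, the desaturases of polyunsaturated chains, rose by 5.26 and 3.91 on the log2 scale, and ME1, the malic enzyme, by 3.59. ACLY, which makes cytosolic acetyl-CoA from citrate and is known to be of little weight in ruminants, fell by 0.44.

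Of 4 tested genes of ketone body metabolism 2 were called higher and 2 lower, beside 33.1% and 35.2% of all genes tested. BDH1, the hydroxybutyrate dehydrogenase of the mitochondrion, went from 21.5 ± 6.0 to 325 ± 44.1 CPM (SD, n = 9 and 6), a log2 change of 3.93 ± 0.14 (SE). BDH2, its cytosolic relative, went from 21.5 ± 2.92 to 10.8 ± 0.87 CPM. OXCT1, which activates acetoacetate for use, was higher by 1.51 on TMM scaling and lower by 0.40 on total reads alone.

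In the citrate cycle, which takes up the acetyl-CoA that beta-oxidation makes, 7 of 16 genes were called lower and 5 higher. Over all genes tested 35.2% were called lower and 33.1% higher. The median log2 change of the list was -0.09, with no change of more than 2-fold. IDH3A at -0.67 and SUCLG2 at -0.62 had the lowest values, followed by SUCLG1 and FH, both at -0.31. OGDH at 0.91, CS at 0.53 and SDHC at 0.25 were among those called higher on TMM scaling, and these 3 were negative on total reads alone. SDHC was not called with upper-quartile scaling (edgeR adjusted p of 0.098).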
